A study of Rattus norvegicus with 6 samples.

Results

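This section describes the chains of the basement membrane in the renal cortex of rats given thiobis(6-tert-butyl-m-cresol) in its 4,4' form, a phenolic antioxidant with a sulfur bridge, abbreviated TBBC. The genes followed were the 6 collagen IV genes (Col4a1 to Col4a6), the laminin genes Lama5, Lamb2 and Lamc1, and the nidogen gene Nid1, 10 in all. They were chosen because Col4a4 had been seen to be lower in TBBC-treated rats, so the comparison of TBBC with vehicle described the chosen genes and was not an independent test of them. Probes were taken as belonging to a gene when the transcript accession in the scanner file matched a RefSeq entry of that gene. By this rule 5 of the 10 genes had a probe, namely Col4a1, Col4a4, Lama5, Lamb2 and Lamc1, with 13 of the 61537 non-control probes of the array between them. Col4a2, Col4a3, Col4a5, Col4a6 and Nid1 were matched to no probe and are not analysed here. The array may carry probes for them that this match did not find. No values are therefore given for the chains that join Col4a4 in one molecule.

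All animals were male Sprague-Dawley (Crl:CD(SD)) rats, 5 weeks old at purchase, on a basal diet. Corn oil was given to 3 rats (vehicle) and TBBC at 300 mg/kg/day to the other 3, both for 4 weeks, and neither group carried a genetic change. Total RNA of the renal cortex of each rat was labelled with the dye Cy3 and hybridised to 1 Agilent array, and the submitters described the animals as biological replicates. The cortex is a mixture of glomeruli, tubules, vessels and interstitium, so the arrays cannot tell fewer cells of one type from less RNA per cell.

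Basement membranes are thin sheets of matrix on which epithelial and endothelial cells sit. Laminins and collagen IV each polymerise into a network, and nidogen and perlecan link the networks. The collagen made from Col4a1 and Col4a2 is found in nearly all basement membranes, including those of tubules and vessels. In the mature glomerular basement membrane, the filter between capillary and podocyte, podocytes add a collagen assembled from the products of Col4a3, Col4a4 and Col4a5, and inherited loss of any of these genes causes Alport syndrome. The same collagen occurs in some distal tubule basement membranes, and a collagen with the Col4a6 product occurs in Bowman's capsule. The laminin of the mature glomerular filter is made from Lama5, Lamb2 and Lamc1.

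Collagen IV genes lie in head-to-head pairs, a gene of each pair being read from one strand and its partner from the other. Promoter windows running from 250 bases before to 50 bases after the annotated start were taken from RefSeq on assembly GRCr8, which held 9 of the 10 genes. The windows of Col4a4 and Col4a3 on chromosome 9 shared 88 bases, and those of Col4a1 and Col4a2 on chromosome 16 shared 176 bases. On chromosome X the windows of Col4a5 and Col4a6 shared 0 bases and had 914 bases between them. The windows of the measured collagen IV genes are shown because Col4a4 was lower in the treated rats while Col4a1 overlapped between the groups, with the bases shared with the partner's window in capitals. They are Col4a4 at chr9:91323528-91323827 on the minus strand and Col4a1 at chr16:84885347-84885646 on the plus strand of GRCr8, each printed 5′ to 3′ along the gene.
Col4a4: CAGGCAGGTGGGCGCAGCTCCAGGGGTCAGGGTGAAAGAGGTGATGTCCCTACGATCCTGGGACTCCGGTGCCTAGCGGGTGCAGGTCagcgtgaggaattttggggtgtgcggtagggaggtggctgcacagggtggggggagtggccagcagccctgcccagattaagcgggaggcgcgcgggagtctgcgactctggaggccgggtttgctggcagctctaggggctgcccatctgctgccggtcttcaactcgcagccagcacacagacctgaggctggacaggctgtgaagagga
Col4a1: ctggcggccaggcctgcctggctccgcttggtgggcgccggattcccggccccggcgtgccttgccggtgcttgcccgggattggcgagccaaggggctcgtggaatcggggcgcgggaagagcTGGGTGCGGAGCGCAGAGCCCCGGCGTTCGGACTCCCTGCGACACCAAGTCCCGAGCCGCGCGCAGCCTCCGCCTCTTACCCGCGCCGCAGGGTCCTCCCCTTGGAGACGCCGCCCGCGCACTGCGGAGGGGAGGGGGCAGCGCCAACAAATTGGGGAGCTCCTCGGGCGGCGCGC

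The windows were searched on both strands for the letters GGGCGG, known as the GC box, for CCAAT, the box bound by NF-Y, and for TATAAA, the box near many start sites. The search also covered TGACTCA, an AP-1 site, CACGTG, the E-box of the clock factors, and TAATTA, a homeodomain core of the kind that LMX1B of podocytes binds. In the windows printed above no matches overlapped. The Col4a1 window held 2 GC boxes and 2 CCAAT boxes, and the Col4a4 window held 0 of the 6 motifs. The TATA box, AP-1 site, clock E-box and homeodomain core were absent from all 9 windows. The CCAAT box was also absent from those of Col4a3, Col4a5, Col4a6, Lama5 and Lamc1. The Lama5 window held 4 GC boxes and that of Lamc1 held 5, with overlapping matches counted. Every window except that of Col4a4 held at least 1 GC box. Of 33469 promoter windows of the same length, 33.1% held a GC box, 37.5% a CCAAT box, 14.2% a TATA box, 4.6% an AP-1 site, 6.4% a clock E-box and 5.4% the homeodomain core. The Col4a3 window held 1 GC box, outside the stretch it shares with Col4a4.

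Levels are given as log2 of the processed signal relative to the 75th percentile of the array, so that 0 is the level of a probe at that percentile and a difference of -1 is a halving. Levels of different genes come from different probes and are not compared with each other. Where a gene had several probes, the brightest stood for it. All 13 probes lay well above background on all 6 arrays. A gene was counted as past the threshold when its limma p, adjusted by the Benjamini-Hochberg method over all transcripts tested, was under 0.05.

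Col4a4 stood at 3.01, 2.72 and 2.67 in vehicle rats 1 to 3 and at 0.97, 0.60 and 0.89 in TBBC rats 1 to 3. The groups did not overlap, as in 15.2% of all transcripts with TBBC lower, and every treated rat lay far below the lowest vehicle rat. The mean was 2.80 ± 0.18 in vehicle and 0.82 ± 0.19 in TBBC (SD, n = 3), a log2 difference of -1.98 ± 0.15 (SE), which left the signal at 25.3% of the vehicle level. The gene's second, dimmer probe gave 2.40, 2.11 and 2.03 in the vehicle rats and 0.32, -0.19 and 0.29 in the TBBC rats, a log2 difference of -2.04 ± 0.19 (SE), or 24.3% of vehicle. Both probes were lowest in TBBC 2. Because Col4a4 was the reason for choosing these genes, these values carry no test. In the fit of all transcripts 1 of the 5 measured genes was past the threshold, Col4a4 itself, where 0.531% of 32956 transcripts passed in either direction and 0.276% passed with TBBC lower, and nothing is read from that count. Without any 1 of the vehicle rats, with slide as a fixed term, or within the slide that holds both groups, no measured gene was past it.

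**Figure D1:**
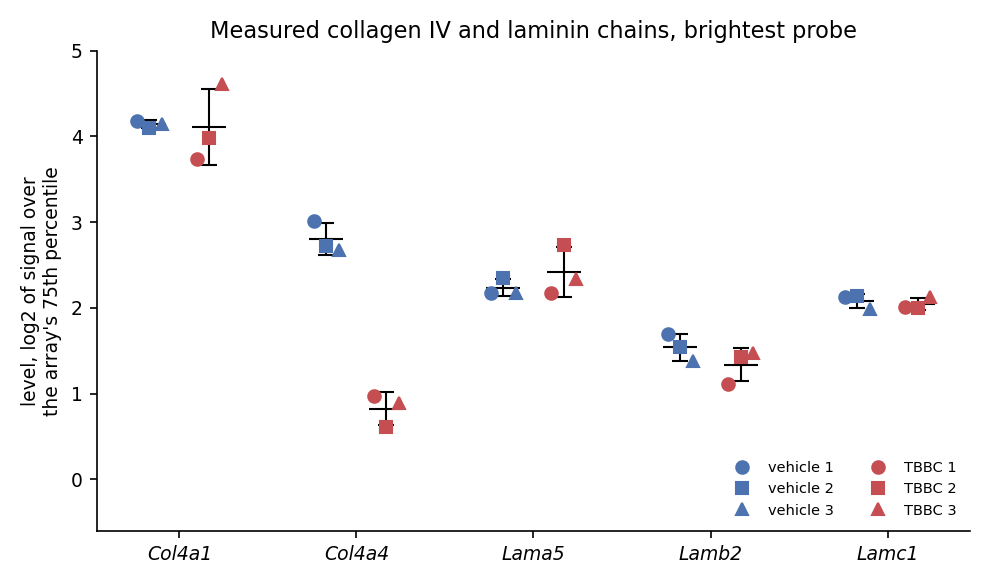
Level of each measured chain on each array (log2 of signal over the array's 75th percentile, brightest probe), with blue for vehicle, red for TBBC, a symbol per animal, and bars for the mean and SD of 3 rats. Col4a4 runs from 2.67 to 3.01 in vehicle and from 0.60 to 0.97 in TBBC, while the groups overlap for Col4a1, Lama5, Lamb2 and Lamc1; heights of different genes come from different probes and are not comparable.

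The arrays were hybridised on a pair of slides. Slide 1 (and scan 1) held the vehicle rats and TBBC 1, and slide 2 (and scan 2) held TBBC 2 and TBBC 3. On the shared slide Col4a4 in TBBC 1 lay 1.83 below the vehicle mean on the log2 scale, and on the other slide TBBC 2 lay 2.20 and TBBC 3 lay 1.91 below it. The difference within the shared slide rests on 1 treated rat, TBBC 1. No vehicle rat was on slide 2, so slide and treatment cannot be told apart for TBBC 2 and TBBC 3.

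Col4a1, the chain of nearly all basement membranes, overlapped between the groups. Its level was 4.18, 4.10 and 4.15 in the vehicle rats and 3.74, 3.98 and 4.61 in the TBBC rats, with TBBC 1 lowest and TBBC 3 highest of all 6. The group means of 4.14 ± 0.04 and 4.11 ± 0.45 (SD, n = 3) gave a log2 difference of -0.03 ± 0.23 (SE), with a 95% interval from the limma fit of -0.58 to 0.51, or 67.0% to 143% of the vehicle level. The treated rats therefore differed among themselves more than the groups did. Its 3 other probes gave log2 differences of -0.02 ± 0.19, 0.10 ± 0.20 and -0.08 ± 0.18 (SE), and TBBC 3 was the highest treated rat on each of the 4 probes.

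The interstitial collagens, which fill the space between tubules, had in TBBC 3 a list median 0.72 above the vehicle mean, against 0.05 in TBBC 1 and -0.72 in TBBC 2 (log2, 8 genes tested). Fibroblast markers (7 genes tested of 9) had medians of 0.02, -0.06 and 1.03 in TBBC 1 to 3. Col1a1, Col1a2 and Col3a1 belong to both lists, so the lists are not independent. The summed signal of the fibroblast markers, in multiples of the 75th percentile, ran from 24.3 to 29.8 in vehicle and from 22.1 to 46.4 in TBBC. Col1a2 made up 29.3% to 42.5% of that sum, and without it the ranges were 14.2 to 18.5 and 15.6 to 32.2. Endothelial markers (11 of 12) had medians of -0.18, 0.05 and -0.21, with summed signals of 83.5 to 86.9 in vehicle and 72.5 to 82.6 in TBBC. Plvap made up 57.2% to 63.3% of that sum, and without it the ranges were 32.6 to 37.2 and 28.9 to 30.3. Of the 11 markers, 4 lay above the vehicle mean and 7 below. Markers of mesangial and smooth muscle cells (10 of 11) had medians of 0.19, -0.07 and -0.02, with summed signals of 24.8 to 27.8 and 32.6 to 40.2. Notch3 alone made up 65.7% to 83.1% of that sum, 5 of the 10 markers lay above the vehicle mean and 5 below, and without Notch3 the sums overlapped, at 8.14 to 8.74 in vehicle and 6.81 to 9.42 in TBBC. Leukocyte markers (10 of 10) had medians of -0.18, -0.49 and 0.76, with summed signals of 57.0 to 74.7 in vehicle and 29.1 to 56.6 in TBBC. Cd74 made up 84.1% to 94.2% of that sum, 5 of the 10 markers lay above the vehicle mean and 5 below, and without Cd74 the sums overlapped, at 4.34 to 5.63 in vehicle and 4.64 to 8.85 in TBBC. None of these genes was past the threshold, and their part in the Col4a1 and Col4a4 values was not tested.

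The laminin chains of the glomerular filter also overlapped between the groups. Lama5 (laminin alpha chain) was at 2.18, 2.35 and 2.18 in the vehicle rats and at 2.17, 2.74 and 2.33 in the TBBC rats. Only TBBC 2 lay above the vehicle range, and it was the highest of all 6 arrays on each of the 3 Lama5 probes. The log2 difference was 0.18 ± 0.17 (SE), with a 95% interval of -0.23 to 0.59, and the other probes gave 0.21 ± 0.16 and 0.04 ± 0.26.

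Lamb2 (the laminin beta chain of the glomerular filter, absent in Pierson syndrome) had 1 probe, at 1.70, 1.54 and 1.37 in vehicle and 1.12, 1.42 and 1.48 in TBBC. TBBC 1 was the lowest of all rats and the other treated rats lay within the vehicle range. The log2 difference was -0.20 ± 0.15 (SE), with a 95% interval of -0.56 to 0.16, or 68.0% to 111% of vehicle.

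Lamc1, the gamma chain found in most laminins, was at 2.12, 2.14 and 1.98 in vehicle and 2.01, 2.00 and 2.12 in TBBC, the narrowest spread among the measured genes in the treated group. Its log2 difference of -0.04 ± 0.10 (SE) had a 95% interval of -0.29 to 0.21. The dimmer Lamc1 probes gave 0.10 ± 0.16 and 0.41 ± 0.35, so its probes did not share a sign. For Col4a1, Lama5, Lamb2 and Lamc1 the intervals, which are of the brightest probes, leave room for modest changes in either direction. Their lower ends lie above the -1.98 of Col4a4. As Col4a4 led to the choice of these genes, that is a description and not a test.

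**Figure D2:**
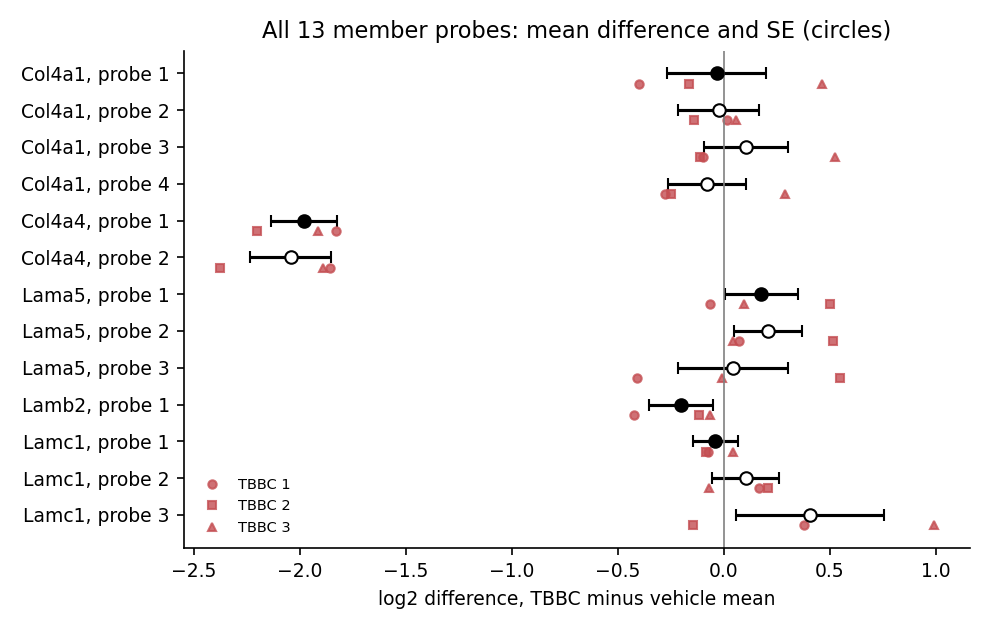
Log2 difference (TBBC minus vehicle mean) for each of the 13 probes, with circles and bars for the mean and SE from a fit of every probe, filled for the brightest probe of a gene, and red symbols below for each TBBC rat. Both Col4a4 probes lie near -2, at -1.98 and -2.04, and the other 11 lie between -0.20 and 0.41.

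Within each array, Col4a4 was set against each other chain as the change in their log2 difference from its vehicle mean. Against Col4a1 this change was -1.43, -2.04 and -2.38 in TBBC 1 to 3, with a mean of -1.95 ± 0.48 (SD, n = 3) and a vehicle SD of 0.15. Against Lamc1 it was -1.76, -2.11 and -1.96, with a vehicle SD of 0.15. Against Lamb2 it was -1.41, -2.08 and -1.85, and against Lama5 -1.77, -2.70 and -2.01. The gap to the widespread collagen chain was thus widest in TBBC 3, where Col4a1 was high, and the gap to Lama5 was widest in TBBC 2, where Lama5 was high. These are descriptions, as Col4a4 enters each of them.

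Col4a4 in the glomerulus comes from podocytes, and podocyte markers were measured beside it. Of 17 markers listed, 15 were tested and 14 lay well above background on all 6 arrays. None of the 15 was past the threshold, 13 lay below the vehicle mean and 2 above it, and the list median was -0.22 on the log2 scale, against -0.02 over all transcripts. The list medians in TBBC 1 to 3 were -0.13, -0.03 and -0.38, where Col4a4 was at -1.83, -2.20 and -1.91. Their summed signal ran from 55.2 to 62.5 times the 75th percentile in vehicle and from 43.0 to 56.8 in TBBC, and the ranges overlapped.

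Nphs1 (nephrin, of the slit diaphragm) differed by -0.25 ± 0.23 (SE) on the log2 scale and Wt1, the podocyte transcription factor, by -0.28 ± 0.24. Podxl, the sialoprotein of the podocyte surface, was lower in every TBBC rat than in any vehicle rat, at 4.15, 4.27 and 4.07 in vehicle and 3.98, 3.97 and 3.63 in TBBC. Its difference of -0.30 ± 0.14 (SE) did not pass (limma, adjusted p = 0.284). Cd2ap, an adaptor protein of the slit diaphragm, went the other way, at no more than 0.10 in any vehicle rat and no less than 0.26 in any TBBC rat. Its difference of 0.58 ± 0.22 (SE) did not pass either (limma, adjusted p = 0.218). The podocyte list median was nearest to the vehicle level in TBBC 2 and lowest in TBBC 3, and nothing is read from this order of 3 rats. The part of podocyte content in the Col4a4 values was not tested.

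**Figure D3:**
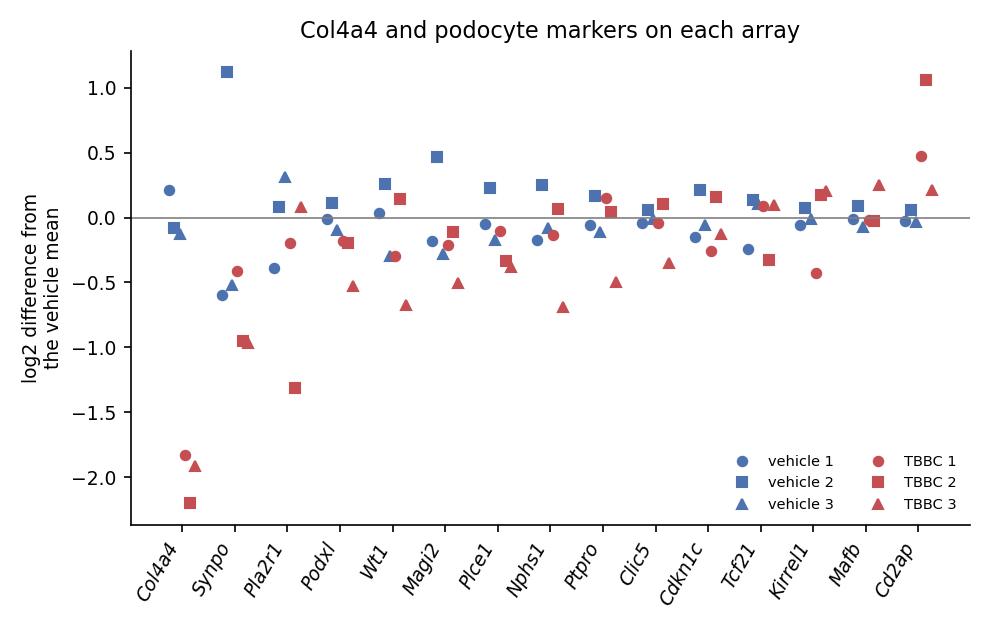
Log2 difference from the vehicle mean on each array (blue vehicle, red TBBC, a symbol per animal) for Col4a4 and 14 of the 15 podocyte markers tested, ordered by group difference. Col4a4 lies at -1.83, -2.20 and -1.91 in the TBBC rats, and the medians of all 15 markers in the same rats are -0.13, -0.03 and -0.38.

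Distal tubules also carry the collagen that contains the Col4a4 product. Markers of the distal tubule and collecting duct (9 of 10 tested) had medians of -0.22, -0.34 and -0.47 in TBBC 1 to 3, and their summed signal ran from 502 to 607 in vehicle and from 275 to 449 in TBBC. Umod (uromodulin) made up 40.8% to 64.7% of that sum, and without it the ranges were 178 to 236 and 158 to 163. None passed, 8 lay below the vehicle mean and 1 above it, and their part in the Col4a4 values was not tested. Proximal tubule markers, 9 of 9 well above background on all arrays as the labelled tissue would have them, had a median of -0.15 and 0 past the threshold. Of these, 8 lay below the vehicle mean and 1 above it, much as in the distal list. Their medians in TBBC 1 to 3 were -0.32, -0.16 and 0.05.

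Among 12297 other named genes, those whose log2 levels over the 6 arrays ran most nearly parallel to Col4a4 were Grtp1 (Pearson r = 0.998), Bmal1 (0.997), Mrpl16 (0.997), Fuom (0.997) and Klf9 (0.995). Since the arrays form separate groups, r mostly records the gap between the groups, and 664 named genes had r above 0.9. Bmal1, a clock transcription factor, differed by -1.27 ± 0.12 on the log2 scale and Klf9, a zinc finger transcription factor, by -0.67 ± 0.10 (SE). Both differences were smaller than that of Col4a4.

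The wider pathway was examined through 132 further genes in 6 lists, of which 99 were tested. None was past the threshold in limma, where 0.531% of all transcripts were, and 24 of the 99 (24.2%) had an unadjusted p under 0.05 against 20.0% of all transcripts. The groups did not overlap for 29 of the 99, with TBBC higher in 18 and lower in 11, or 29.3% against 28.3% of all transcripts. The share without overlap was thus close to that of the array as a whole. The median log2 difference was 0.05 for these genes and -0.02 for all transcripts.

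**Figure D4:**
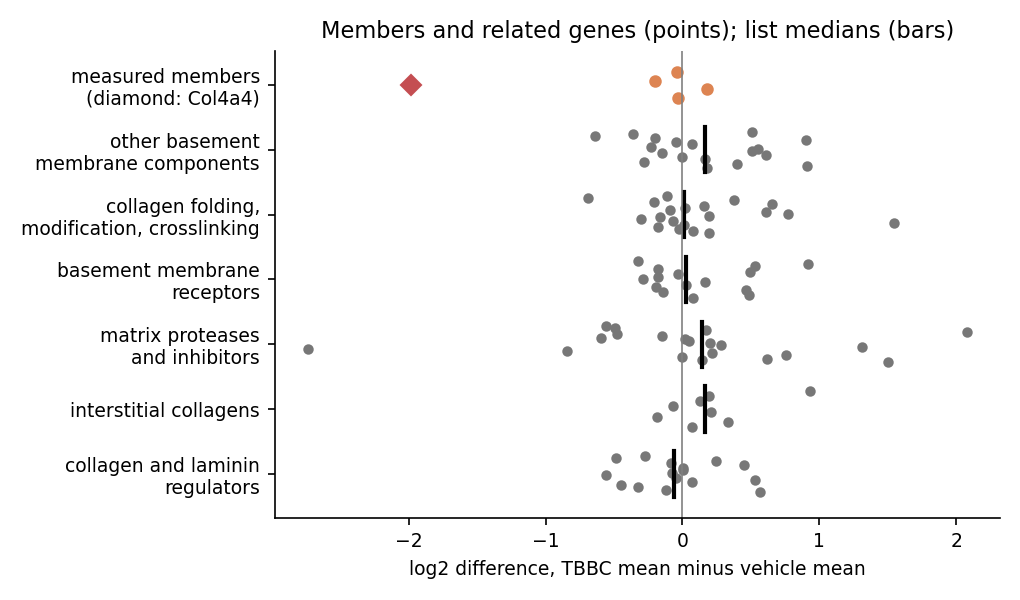
Log2 difference (TBBC mean minus vehicle mean) of 97 of the 99 tested genes, grouped by list, with black bars for the medians of all tested genes of a list, a red diamond for Col4a4 and orange points for the other measured members. Col4a4 lies at -1.98, the list medians lie between -0.06 and 0.17, and single genes toward the edges are Timp1 at 2.08 and Mep1b at -2.74.

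Among other basement membrane components, 0 of 19 tested genes passed, 11 lay above and 8 below the vehicle mean, and the list median was 0.17. Tinag, the tubulointerstitial nephritis antigen of proximal tubule basement membranes, differed by -0.36 ± 0.11 (limma, adjusted p = 0.153). Col15a1, a collagen at the outer face of basement membranes, differed by 0.91 ± 0.28 (limma, adjusted p = 0.155).

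Enzymes of collagen folding, modification and crosslinking had a list median of 0.01, with 0 of 20 past the threshold. Ppib (cyclophilin B, a proline isomerase of collagen folding) was at 3.99, 3.83 and 3.86 in vehicle and 4.69, 4.43 and 4.53 in TBBC, a difference of 0.66 ± 0.11. P4hb, which is protein disulfide isomerase and the beta subunit of prolyl 4-hydroxylase, was at 4.67, 4.64 and 4.67 in vehicle and 5.44, 5.13 and 5.23 in TBBC, a difference of 0.61 ± 0.12. The groups did not overlap for either gene, and both fell short of the threshold (limma, adjusted p = 0.0715 and 0.0795, from 0.0269 to 0.273 over the alternatives of both). Loxl4, a lysyl oxidase, differed by 1.55 ± 0.40 (limma, adjusted p = 0.124) and lay well above background in 2 of the 3 vehicle rats.

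Receptors of the basement membrane, which are integrins, discoidin receptors, dystroglycan and syndecans, had a list median of 0.03, with 0 of 15 past the threshold. Sdc1 (syndecan 1, a heparan sulfate proteoglycan of epithelial cells) was at 2.16, 2.09 and 2.03 in vehicle and 3.03, 2.82 and 3.19 in TBBC. Its difference of 0.92 ± 0.13 (SE) missed the threshold narrowly (limma, adjusted p = 0.0508) and was past it under 7 of 22 alternatives, with a range of 0.0207 to 0.222. Cd151, a tetraspanin partner of laminin-binding integrins, differed by 0.48 ± 0.15, and Sdc4 (syndecan 4) by -0.32 ± 0.12 (limma, adjusted p = 0.160 and 0.208).

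Matrix proteases and their inhibitors had a list median of 0.14, with 0 of 21 past the threshold and 10 at an unadjusted p under 0.05. Timp1, an inhibitor of matrix metalloproteinases, was at 0.98, 1.15 and 0.87 in vehicle and 2.31, 3.79 and 3.13 in TBBC, a difference of 2.08 ± 0.36. Adamts1, a secreted protease, differed by 1.50 ± 0.24. Adjusted p-values (limma) were 0.0707 for Timp1 and 0.0622 for Adamts1, and over the alternatives they ran from 0.0296 to 0.249. Mep1b, a meprin subunit of the proximal brush border named here after its value was seen, was at 2.98, 3.47 and 4.58 in vehicle and 2.63, -0.58 and 0.77 in TBBC, a difference of -2.74 ± 0.84 (limma, adjusted p = 0.158).

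The interstitial collagens had 0 of 8 past the threshold and a list median of 0.16. Without TBBC 3 that median was -0.28 and without TBBC 2 it was 0.39, so its sign rested on TBBC 3. Col1a1 showed the same spread, at 0.93, -0.51 and 1.89 in TBBC 1 to 3 around a vehicle mean of 0.44 ± 0.32 (SD, n = 3). Col8a1 differed by 0.93 ± 0.36, Col5a3 by 0.13 ± 0.13 and Col6a2 by 0.20 ± 0.20, and none passed (limma, adjusted p from 0.222 to 0.630). Without TBBC 3 these differences were 0.57, 0.04 and -0.0013. Without vehicle 3 that of Col5a3 was 0.06, and that of Col6a2 was 0.11 without vehicle 1 and 0.30 without TBBC 2. With the mean of a gene's probes Col5a3 differed by 0.42 and Col6a2 by 0.07. Over all the alternatives the difference of Col8a1 ran from 0.33 to 1.23.

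Regulators of collagen and laminin genes, from the TGF-beta pathway to podocyte transcription factors, had a list median of -0.06, with 0 of 16 past the threshold. Smad7, an inhibitor of TGF-beta signalling, was at 2.32, 2.35 and 2.24 in vehicle and 2.03, 1.45 and 1.76 in TBBC, a difference of -0.56 ± 0.16 (limma, adjusted p = 0.146). Smad2 differed by 0.53 ± 0.18 and Thbs1 (thrombospondin 1) by -0.48 ± 0.18 (limma, adjusted p = 0.186 and 0.220). Over the alternatives these differences ran from 0.21 to 0.69 for Smad2 and from -0.78 to -0.05 for Thbs1. Thbs1 was dim, with a vehicle mean of -4.37. Lmx1b was not among the genes tested.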

How the data were processed

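The deposited scanner files give the intensity of each spot, made with version 10.7.1.1 of Agilent's Feature Extraction per the file headers, which subtracts background and detrends each array by itself; no scaling between arrays was applied. Deposited values in the series table are a linear ratio: signal divided by a constant that lay at most 0.232% from the 75th percentile of that array, neither logged nor centred. Their column medians were 0.111, 0.112, 0.113 (vehicle 1 to 3), 0.113, 0.107 and 0.114 (TBBC 1 to 3). No source used here gives the authors' test.

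Of 62976 spots, 1439 controls were left out. Accessions without versions, matched to RefSeq (GRCr8), named 28206 probes of 15645 genes; the headers name build rn4, so probes have no coordinates here. Signals over the array's 75th percentile were put on the log2 scale; flagged spots (0 to 9 per array) were dropped on their array, and no flag fell on a member probe. Probes were tested if at least 1 group had them well above background on all its unflagged arrays, with 2 or more unflagged arrays in each group. The brightest tested probe represented a gene, and unnamed probes were kept singly (32956 transcripts, 12298 named). Groups were compared with limma 3.58.1 in R 4.3.3 (lmFit, eBayes, two-sided, Benjamini-Hochberg). The fit was tested on simulated data, drawn for the filtered transcripts without a slide effect. That run therefore did not cover the filter or the slides. The 75th percentile ran from 861 to 1038, 67.1% to 70.9% of probes lay well above background, and the number of arrays limits the precision. Named were all members, the 3 genes of each related list with the smallest p, the 5 genes most parallel to Col4a4 and podocyte genes, of which some are not reported here; Mep1b, Col1a1, Cd2ap, Notch3, Cd74 and Umod were added after their values were seen. Members, lists, motifs and tests were chosen with earlier results of these data known.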

Additional observations from a re-analysis of the deposited data

How the results depend on the processing

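The log2 difference of Col4a4 kept its sign under all 22 alternatives, from -2.06 (without TBBC 1) to -1.83 (slide as a fixed term, or the shared slide alone, which rest on TBBC 1). Lamb2 kept its sign too (-0.42 to -0.09). Col4a1 turned without TBBC 1 (0.15) or TBBC 2 (0.03), Lama5 with slide as a fixed term or the shared slide alone (-0.06), and Lamc1 with the mean of its probes (0.16). The count of transcripts past the threshold, 175, was 761 with normexp on the median signal (background method and signal measure changed together), 1087 with eBayes trend and robust, 333 with every probe on its own, 52 with no filter on dim probes, 48 with slide as a fixed term (43 higher, 5 lower), 307 within the shared slide (263 higher, 44 lower), 122 with slide as a random block, and 6 to 274 with 1 array left out. Members past it were 0 within the shared slide and with slide as a fixed term, and 0 to 1 with 1 array left out. Related genes past it, 0 of 99, were 6 under that joint change, 8 with eBayes trend and robust, and 1 with median scaling, the filter on all arrays, the mean of probes, every probe, array weights or the shared slide, and 0 to 2 with 1 array left out. Among the related lists the median kept its sign under all 22 alternatives for other basement membrane components and for regulators, under 21 for interstitial collagens, 20 for the folding enzymes, 20 for the proteases and 16 for the receptors. The cause was not tested. Same-numbered deviations correlated at -0.09, 0.03 and -0.07, and differently numbered ones at -0.13 to 0.21. With 3 arrays a group these values cannot show whether replicate numbers mark pairs. With the replicate block, limma called 0 transcripts (5366 at an unadjusted p under 0.05), 0 members and 0 related genes, and the Col4a4 difference was again -1.98. With 3 arrays a group the precision is limited by their number.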
